A study of Homo sapiens with 2 samples.

Results

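Collagen genes were examined in MKN45P, a highly metastatic human gastric cancer line, and in MKN45, the line from which it was derived. Each line was represented by 1 exon array, hybridised with RNA from cultured cells. An exon array reads a gene at many places through probesets, small groups of probes placed by exon. The members were all genes whose annotated symbol is COL, a number, A and a number: 43 genes with 1660 probesets, among 18923 genes with 286871 probesets that carry exactly 1 symbol. Of the 43 symbols, 42 are current, and COL29A1 is now named COL6A5. COL4A5 had only 2 probesets, and a gene value was made for the other 42 genes, which had at least 4. The labels name the line and the cell type and no clone or passage. Both lines were grown in the same serum-containing medium and detached with trypsin before RNA was prepared.

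Collagens are trimeric proteins of the extracellular matrix, built from alpha chains that wind into a triple helix. Fibrillar collagens form the cables of connective tissue and are made mainly by fibroblasts. Type IV collagen forms the sheet-like network of the basement membrane under epithelia, and several other types anchor cells or fibrils to that matrix. Chains are hydroxylated and folded in the endoplasmic reticulum, exported, trimmed and cross-linked, and cells bind the finished protein through integrins and discoidin domain receptors.

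All values are on a log2 scale, and the level of a gene is the median of its probesets on an array. To obtain the difference of a gene, MKN45 was subtracted from MKN45P at each probeset and the median of these values was taken, so it need not equal the gap between the levels. A gene was said to have signal in a line when its level was at or above the 75th percentile of all probesets of that array, which was 2.73 in MKN45P and 2.80 in MKN45. Probes differ in how strongly they bind, so levels of different genes are not ranked against each other. Since each line has a single array, nothing measures the error between replicates, the lines could not be compared by a test, and the number of arrays limits the precision. The interquartile range given with a difference is the spread between probesets of 1 gene, which read the same RNA and are not replicates.

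Epithelial markers had signal in both lines, which the labels call gastric cancer, and fibroblast markers lay near the bottom of the scale. All 7 summarised epithelial markers had signal in both lines. CDH1, the epithelial cadherin, had a level of 10.74 in MKN45P and 10.26 in MKN45, and the adhesion molecule EPCAM had 7.43 in MKN45P and 6.39 in MKN45. The tight junction protein CLDN7 had 9.93 in MKN45P and 8.83 in MKN45, a difference of 1.14, and was the only epithelial marker past 2-fold. The difference was above 0 in 5 of the 7 markers and below 0 in the keratins KRT8 (-0.21) and KRT18 (-0.08). A further keratin, KRT19, had 2 probesets and was not summarised, with a difference of -0.76. The sum of the levels of the 7 summarised markers was 48.0 in MKN45P and 44.6 in MKN45. None of 12 fibroblast markers had signal in either line, and their levels ran from 1.65 to 2.10 in MKN45P and from 1.66 to 2.12 in MKN45. Genes of muscle, nerve, retina and other tissues that these cells should not use were read as a low comparison. None of those 25 genes had signal, with levels of up to 2.51 in MKN45P and 2.76 in MKN45, and none of 118 olfactory receptor genes had signal.

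Few collagens had signal in these carcinoma lines. In MKN45P 8 of 42 collagen genes (19.0%) had signal, against 48.9% of all 16937 genes summarised. In MKN45 it was 7 of 42 (16.7%), against 45.2% of all genes. The 7 genes with signal in both lines were COL4A1, COL4A2, COL6A1, COL6A2, COL12A1, COL17A1 and COL18A1. COL1A1 passed the threshold in MKN45P alone and lay close to it in both lines. The counts depend on where the threshold lies, and so do the shares of all genes. At the 90th percentile only COL4A2 passed in either line, against 18.47% of all genes in MKN45P and 16.05% in MKN45. At the 95th percentile of olfactory receptor probesets 14 of 42 passed in MKN45P, against 57.59% of all genes. In MKN45 12 of 42 passed it, against 50.51%.

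**Figure D1:**
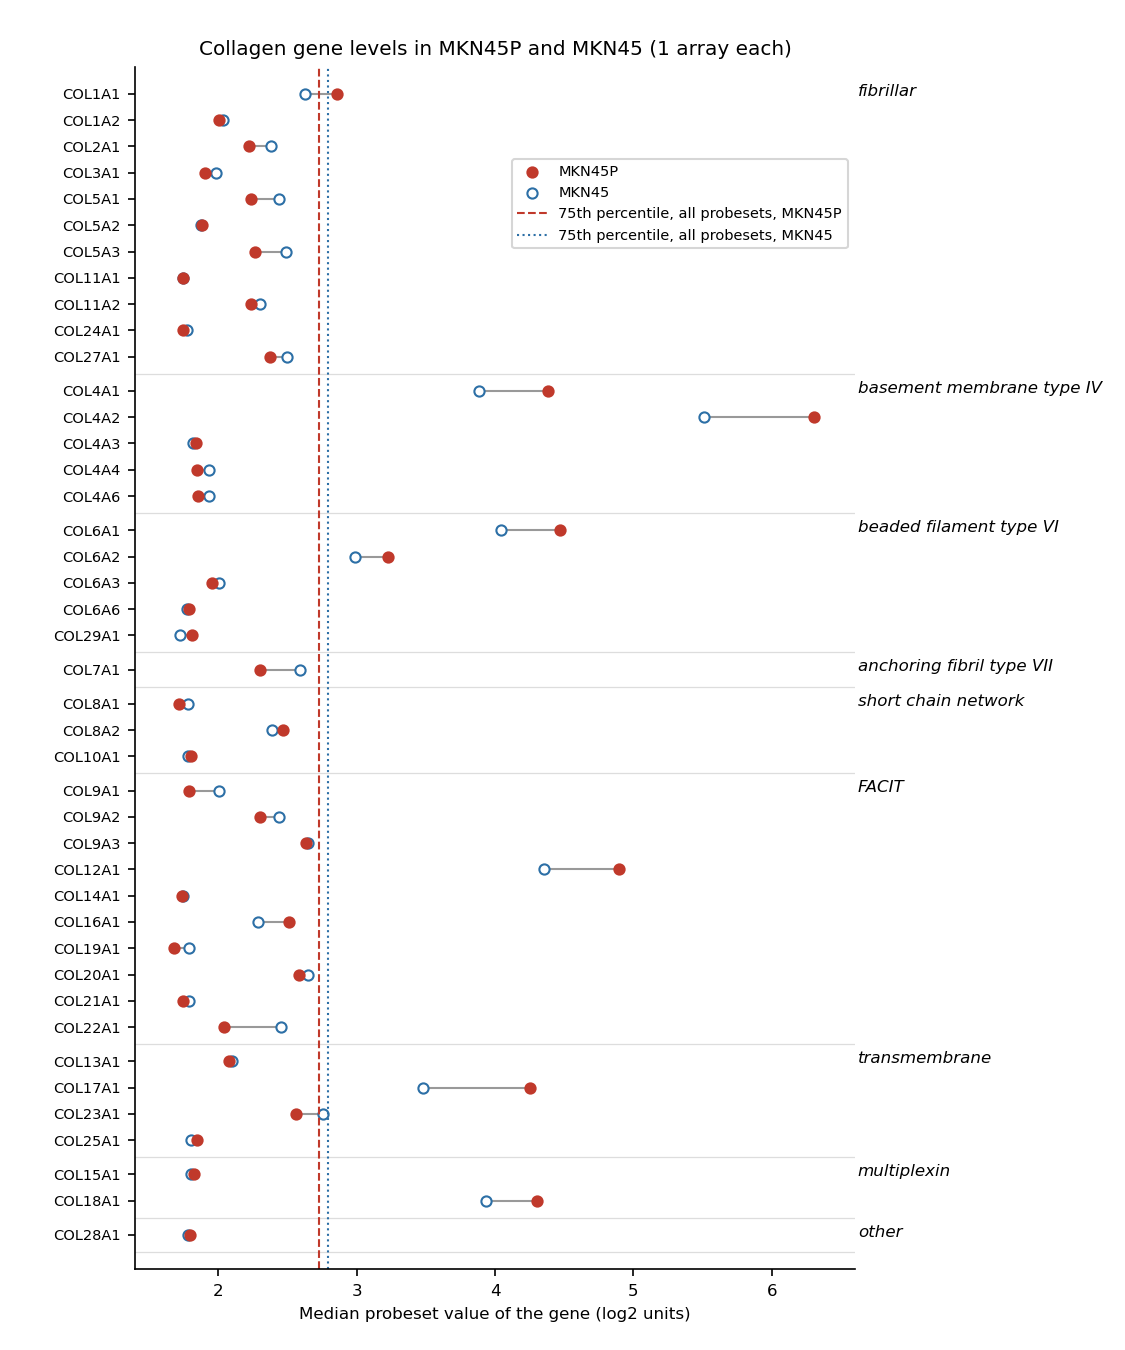
Level of each of 42 collagen genes (median of its probesets, log2 units, horizontal axis) in MKN45P (filled) and MKN45 (open), grouped by collagen class, with the 75th percentile of all probesets of each array as vertical lines. The 7 genes to the right of both lines on both arrays are COL4A1, COL4A2, COL6A1, COL6A2, COL12A1, COL17A1 and COL18A1; the other genes lie at or below 2.86.

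No collagen gene differed 2-fold or more between the lines. The count was 0 of 42 in either direction, where 3.55% of all genes passed 2-fold upward in MKN45P and 0.927% downward. At shares this small few of 42 genes would pass, so the count of 0 is close to the background. Of the 42 genes 34 had signal in neither line, and near the low end of the scale differences are compressed. The median difference of the 42 genes was -0.05, and that of all 16937 genes was 0.002. The members ranged from -0.30 for COL23A1 to 0.71 for COL4A2. In these bulk RNA samples, fewer cells that use a gene and less of its RNA per cell cannot be told apart.

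Differences were mostly above 0 in genes with signal and mostly below 0 in genes without it. Of the 7 collagen genes with signal in both lines, 6 had a difference above 0 (85.7%), against 62.1% of all 7146 such genes, and their median was 0.21 against 0.11. Of the 34 collagen genes with signal in neither line, 31 had a difference below 0 (91.2%), against 62.4% of all 8139 such genes, and their median was -0.06 against -0.02. The difference of median levels was also taken, which is the level of a gene in MKN45P minus its level in MKN45. By it 23 of the 34 (67.6%) were below 0, against 55.7% of all such genes. Of the 7 genes with signal in both lines 7 were above 0, against 61.8% of all such genes. Most of these values are small, and near the low end of the scale differences are compressed.

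Type IV collagen was read through 2 of its chains. COL4A2, which encodes the alpha-2 chain of the common basement membrane trimer, had a level of 6.30 in MKN45P and 5.51 in MKN45. Its difference was 0.71 (interquartile range 0.31 to 1.19 over 41 probesets), which is 1.63-fold, and 37 of the 41 probesets were higher in MKN45P. COL4A1, the alpha-1 chain of the same trimer, had 4.38 in MKN45P and 3.89 in MKN45, a difference of 0.18 (-0.07 to 0.42 over 47 probesets). Of its probesets 31 were higher and 16 lower in MKN45P. Both genes thus had signal and a difference above 0, and the range of COL4A1 included 0.

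The other type IV chains lay at the level of genes that these cells should not use. COL4A3, a chain of the specialised basement membranes of kidney, lung and inner ear, had 1.84 in MKN45P and 1.82 in MKN45. Its partner COL4A4 had 1.85 in MKN45P and 1.94 in MKN45, and COL4A6, found in some epithelial and smooth muscle basement membranes, had 1.86 in MKN45P and 1.93 in MKN45. Their differences ran from -0.07 to 0.00. COL4A5, with 2 probesets, had 2.22 in MKN45P and 2.69 in MKN45, below the thresholds.

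The type IV genes lie in head-to-head pairs, which makes the start regions worth seeing beside the levels. COL4A1 and COL4A2 are read in opposite directions from starts separated by 126 bases, and that whole stretch is shown. For the pair without signal, COL4A3 and COL4A4, the starts used here are 418 bases apart, and the 250 bases before the start of COL4A3 are shown. The sequences are from RefSeq. Capitals mark CCAAT, the GC box GGGCGG and TATAAA on either strand; these motifs do not overlap in the stretches printed.
COL4A1 and COL4A2, chr13:110307158-110307283, plus strand, GRCh38.p14: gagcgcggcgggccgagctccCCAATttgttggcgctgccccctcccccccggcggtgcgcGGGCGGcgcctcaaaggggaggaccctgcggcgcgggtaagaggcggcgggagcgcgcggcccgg
COL4A3, chr2:227164374-227164623, plus strand, GRCh38.p14: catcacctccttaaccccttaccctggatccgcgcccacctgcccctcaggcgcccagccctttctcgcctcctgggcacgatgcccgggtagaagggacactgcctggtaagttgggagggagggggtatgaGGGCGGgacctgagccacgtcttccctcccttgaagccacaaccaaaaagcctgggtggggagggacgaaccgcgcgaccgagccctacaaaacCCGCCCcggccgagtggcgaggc

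The stretch shared by COL4A1 and COL4A2 is 80.2% G and C, with 20 CpG, 1 CCAAT and 1 GC box. The stretch before COL4A3 is 66.4% G and C, with 17 CpG, 2 GC boxes and no CCAAT. Neither holds TATAAA. Over all 35116 RefSeq promoter windows (250 bases before to 50 after a start), CCAAT occurs on either strand in 34.6%, GGGCGG in 45.0% and TATAAA in 11.5%. The stretches printed are shorter than these windows, at 126 and 250 bases, so their counts and these shares are not on the same length. A match describes the letters and is not a binding site, and the array does not measure start use.

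Type VI collagen, which forms beaded microfilaments from alpha-1, alpha-2 and a further chain, was read through its alpha-1 and alpha-2 genes. COL6A1 had a level of 4.47 in MKN45P and 4.05 in MKN45, with a difference of 0.21. Its probesets disagreed: the interquartile range was -0.42 to 0.67 over 26 probesets, of which 15 were higher and 11 lower in MKN45P. COL6A2, its neighbour on chromosome 21, had 3.23 in MKN45P and 2.99 in MKN45, with a difference of -0.10 (-0.31 to 0.27 over 32 probesets). The sign of COL6A2 turned, to 0.24, when its level in MKN45 was subtracted from its level in MKN45P instead. The interquartile range of both genes included 0.

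Genes for the remaining type VI chains had no signal. COL6A3, the usual alpha-3 chain, had 1.96 in MKN45P and 2.01 in MKN45. COL6A6 and COL29A1 (now COL6A5), which encode alternative chains, lay between 1.72 and 1.81 in both lines. No probeset of COL29A1 reached the threshold in either line.

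COL12A1 and COL17A1, like COL4A2, were higher in MKN45P at most of their probesets. COL12A1 encodes type XII collagen, a fibril-associated collagen with interrupted helices (FACIT) that binds the surface of fibrils. Its level was 4.89 in MKN45P and 4.35 in MKN45, and its difference was 0.50 (0.21 to 0.92 over 71 probesets), or 1.41-fold. Of the 71 probesets 64 were higher in MKN45P. Of its 63 probesets with signal in either line 17 passed 2-fold upward in MKN45P and 0 downward. Among all 152042 such probesets 16.6% passed 2-fold upward and 7.64% downward. Of the 17, probesets 2961237, 2961263, 2961265 and 2961280 had signal in MKN45P alone, which kept them from passing 2-fold downward.

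COL17A1 encodes type XVII collagen (BP180), a transmembrane collagen of hemidesmosomes, which fasten epithelial cells to the basement membrane. Its level was 4.25 in MKN45P and 3.48 in MKN45, and its difference was 0.55 (0.36 to 1.09 over 44 probesets), or 1.46-fold. Of the 44 probesets 41 were higher in MKN45P. Of its 36 probesets with signal, 12 were at least 2-fold higher and 1, probeset 3305147, was at least 2-fold lower, at 5.21 in MKN45P and 6.87 in MKN45. Of the 12, probesets 3305159 and 3305172 had signal in MKN45P alone, which kept them from being 2-fold lower. COL17A1 was above 0 and below 2-fold in the main summary and in the other 7 settings tried.

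The starts of COL12A1 and COL17A1 differ in base composition, as the 250 bases before each start show, read on the strand of the gene, with capitals as above.
COL12A1, chr6:75206054-75206303, minus strand, GRCh38.p14: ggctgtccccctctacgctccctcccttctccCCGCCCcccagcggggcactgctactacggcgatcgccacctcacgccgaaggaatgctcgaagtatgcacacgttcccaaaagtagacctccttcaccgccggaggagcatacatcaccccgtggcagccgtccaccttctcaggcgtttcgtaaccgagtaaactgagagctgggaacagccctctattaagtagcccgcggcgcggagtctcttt
COL17A1, chr10:104085881-104086130, minus strand, GRCh38.p14: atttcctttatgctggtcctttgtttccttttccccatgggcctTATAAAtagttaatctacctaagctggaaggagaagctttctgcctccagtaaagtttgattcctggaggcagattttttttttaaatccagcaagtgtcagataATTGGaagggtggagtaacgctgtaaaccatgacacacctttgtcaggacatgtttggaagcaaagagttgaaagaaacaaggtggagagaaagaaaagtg

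The stretch before COL12A1 is 61.2% G and C with 21 CpG and 1 GC box. The stretch before COL17A1 is 40.4% G and C with 1 CpG, 1 TATAAA and 1 CCAAT (as ATTGG) and no GC box. Windows were matched for 6 of the 8 genes with signal in MKN45P and for 24 of the 34 without it. The median G and C content was 76.7% over 7 windows of the genes with signal, 62.3% over 35 windows of those without, and 58.7% over all windows. A GC box was present in 6 of 7 windows with signal and in 18 of 35 without, CCAAT in 3 and 10, and TATAAA in 3 and 5. The windows of COL4A1 and COL4A2 overlap and hold largely the same letters.

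COL18A1 encodes type XVIII collagen, a heparan sulphate collagen of epithelial and vascular basement membranes whose end fragment is endostatin. Its level was 4.31 in MKN45P and 3.93 in MKN45, yet its difference was only 0.06 (-0.45 to 0.34 over 46 probesets). The probesets divided by their place in the order of probeset IDs. In the first 23, 14 were lower and 9 higher in MKN45P, with a median difference of -0.32. In the last 23, 17 were higher and 6 lower, with a median of 0.33. This gap of 0.65 was the largest of the 8 genes with signal in either line, where the next was 0.44 in COL6A1, and it was singled out after the values were seen. COL18A1 has 2 starts among the RefSeq windows. Which probesets belong to which start was not worked out, since probeset positions were not used here.

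**Figure D2:**
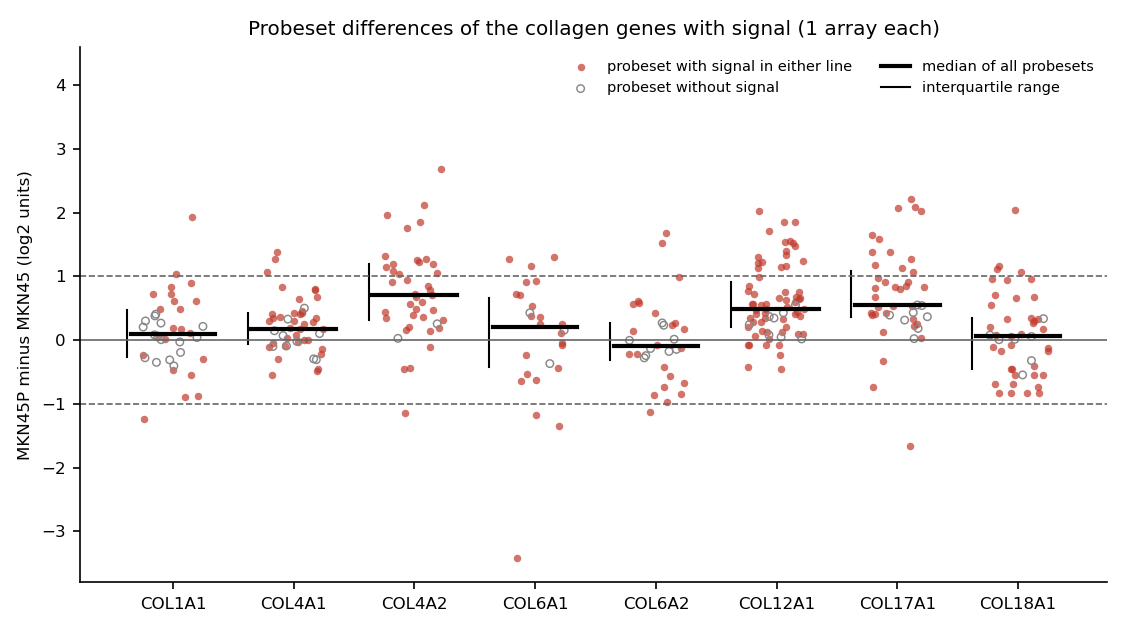
Difference of every probeset, MKN45P minus MKN45 in log2 units (vertical axis), for the 8 collagen genes with signal in either line; filled points have signal in either line, thick bars are the gene medians, thin bars the interquartile ranges, and dashed lines mark 2-fold. The medians of COL4A2 (0.71), COL17A1 (0.55) and COL12A1 (0.50) have interquartile ranges above 0, and those of the other 5 genes include 0.

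COL15A1, the other member of the multiplexin class with COL18A1, had no signal. Its level was 1.82 in MKN45P and 1.81 in MKN45. A single probeset of it, 3181677, had 7.24 in MKN45P and 8.10 in MKN45.

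Fibrillar collagens were low in both lines. Of 11 genes, 1 had signal in MKN45P and 0 in MKN45. COL1A1, the alpha-1 chain of type I collagen, had 2.86 in MKN45P and 2.62 in MKN45, with a difference of 0.10 (-0.26 to 0.47 over 38 probesets). Its share of probesets with signal was 55.3% in MKN45P and 47.4% in MKN45. COL1A2, the alpha-2 chain of the same trimer, had 2.01 in MKN45P and 2.04 in MKN45, and signal at 18.2% of its probesets in MKN45P and 23.6% in MKN45. COL3A1, the chain of type III collagen, had 1.91 in MKN45P and 1.98 in MKN45. The chains of types II, V, XI, XXIV and XXVII lay between 1.75 and 2.50 in the lines. Over the class, 134 of 536 probesets had signal in MKN45P, where 49.4% of all single-symbol probesets did, and 155 of 536 (28.9%) had it in MKN45, against 47.1% of all.

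The remaining classes had no member with signal other than COL12A1 and COL17A1. COL7A1, the anchoring fibril collagen that lies beneath hemidesmosomes, had 2.30 in MKN45P and 2.59 in MKN45, with a difference of -0.22 (-0.50 to -0.02 over 78 probesets). The short chain network genes COL8A1, COL8A2 and COL10A1 ran from 1.72 to 2.47 in MKN45P and from 1.78 to 2.39 in MKN45. The 9 other FACIT genes ran from 1.68 to 2.64 in MKN45P, where the value of COL9A3, a chain of cartilage type IX collagen, is the upper end, and from 1.75 to 2.65 in MKN45. Of the transmembrane class, COL13A1 had 2.08 in MKN45P and 2.10 in MKN45, COL25A1 had 1.85 in MKN45P and 1.81 in MKN45, and COL28A1, outside the named classes, had 1.80 in MKN45P and 1.78 in MKN45. COL23A1, a further transmembrane collagen, had 2.56 in MKN45P and 2.76 in MKN45, just under the MKN45 threshold.

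Several genes without signal still carried bright probesets. Of the 34 genes, 17 had at least 1 probeset in the top 5% of an array (at or above 6.67 in MKN45P or 6.51 in MKN45), 38 probesets in all of 1313. By definition 5% of all probesets of an array lie there, so 38 of 1313 is no excess. The same count over all genes without signal was not taken. Of the 38, 18 were in the top 5% on both arrays, and the others entered through 1 array, so their direction is not counted here. COL27A1, a fibrillar collagen of cartilage, had probeset 3185981 at 13.15 in MKN45P and 13.08 in MKN45, near the top of the scale, while its median was 2.38 in MKN45P and 2.50 in MKN45. COL23A1 had 5 such probesets, and they were not isolated. Probesets 2889692, 2889693 and 2889694, with consecutive IDs, had 8.57, 8.90 and 8.14 in MKN45P and 9.03, 9.63 and 8.62 in MKN45. Of the 20 probesets of COL23A1, 7 had signal in MKN45P and 10 in MKN45. COL7A1 had 7 in the top 5% of MKN45 or MKN45P, of which 1 reached it in MKN45P. A bright probeset in a gene whose other probesets are dim does not show that the gene is used, and it raises a mean. With means in place of medians 17 of 42 collagen genes had signal in MKN45P, against 59.1% of all genes. In MKN45 it was 21 of 42, against 57.3% of all genes.

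**Figure D3:**
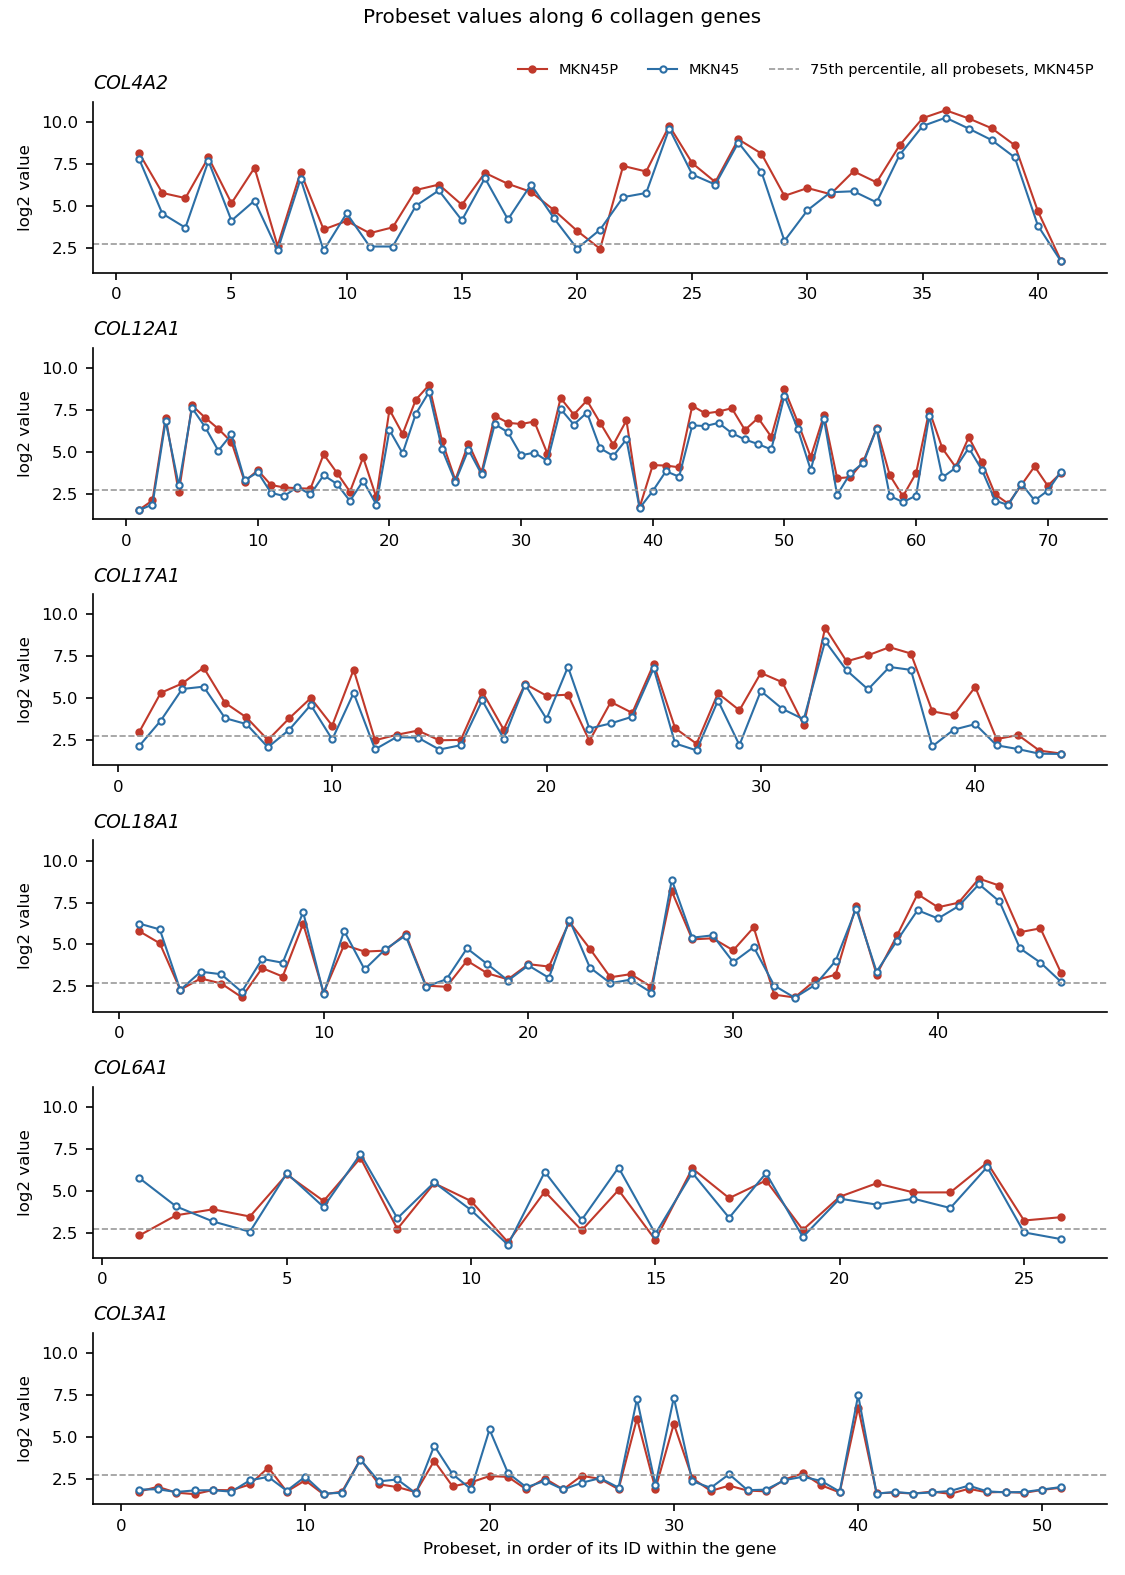
Value of each probeset (log2 units, vertical axis) in MKN45P (filled) and MKN45 (open), in order of probeset ID, for COL4A2, COL12A1, COL17A1, COL18A1, COL6A1 and COL3A1; the dashed line is the 75th percentile of all probesets in MKN45P. In the first 3 genes the MKN45P line runs above the MKN45 line at most probesets, COL18A1 and COL6A1 cross, and COL3A1 stays near the bottom apart from a few peaks.

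The probesets past 2-fold were mostly higher in MKN45P in genes with signal and mostly lower in genes without it. In the 7 genes with signal in both lines, 56 of 260 probesets with signal in either line (21.5%) were at least 2-fold higher in MKN45P, against 17.1% in all genes of that kind, and 6 (2.31%) at least 2-fold lower, against 6.84%. In the 34 genes without signal, 7 of 352 such probesets (1.99%) were at least 2-fold higher, against 8.13%, and 64 (18.2%) at least 2-fold lower, against 9.25%. A probeset with signal in 1 line alone had to be higher there, and the shares were also taken over probesets with signal in both lines. In the 34 genes 5 such probesets (2.01%) were then at least 2-fold higher, against 5.39%, and 36 (14.5%) at least 2-fold lower, against 9.34%. In the 7 genes the counts were 43 (20.4%) and 4 (1.90%) of 211, against 16.1% and 6.85%. Probesets of a gene share its RNA, and these shares have no test.

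A few single probesets departed from their gene. Among 634 examined collagen probesets 9 had a difference at least 2 below that of their gene, and 0 at least 2 above it. Among all examined probesets 0.405% departed downward and 0.821% upward. Of the 9, 7 had signal in MKN45 alone and could not have departed upward by 2, so the 9 and 0 are not read as a direction. The others, probeset 3305147 of COL17A1 and probeset 2406584 of COL8A2, had signal on both arrays. Each of the 9 lay in a different gene: COL1A2, COL3A1, COL5A1, COL5A3, COL6A1, COL6A3, COL8A2, COL17A1 and COL25A1. The farthest was probeset 3924373 of COL6A1, at 2.33 in MKN45P and 5.76 in MKN45, a departure of -3.63. Probeset 2519606 of COL3A1 had 2.67 in MKN45P and 5.45 in MKN45, a departure of -2.73. Whether such a probeset reads its own gene was not tested.

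Several collagen genes lie next to each other on a chromosome, 7 pairs in all among protein-coding genes. The pairs COL4A1 with COL4A2 and COL6A1 with COL6A2 had signal at both genes in MKN45P. The pairs COL3A1 with COL5A2, COL4A4 with COL4A3, COL29A1 with COL6A6, COL19A1 with COL9A1 and COL4A6 with COL4A5 had it at neither.

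Several enzymes that modify and fold collagen chains passed 2-fold, which none of the chains did. Of 16 genes summarised, 13 had signal in each line, 4 passed 2-fold upward in MKN45P and 1 downward. The same 3.55% and 0.927% of all genes are the background. The list was chosen with earlier results of these data known, so its counts only describe it. The contrast with the chains is uneven, since 34 of the 42 collagen genes had no signal and their differences are compressed. The prolyl 4-hydroxylase subunits P4HA1 (6.96 in MKN45P, 4.74 in MKN45, difference 1.75) and P4HA2 (5.30 in MKN45P, 3.53 in MKN45, difference 1.59) were higher. So were the lysyl hydroxylases PLOD3 (6.73 in MKN45P, 5.42 in MKN45, difference 1.07) and PLOD2 (5.69 in MKN45P, 4.69 in MKN45, difference 1.01). Both were under 2-fold with quantile normalization, at 0.91 and 0.85, and with means over probesets, at 0.96 and 0.87. PLOD2 was also under it with loess (0.94) and just under it by the difference of median levels (0.998). LEPREL1 (now P3H2), a prolyl 3-hydroxylase, was lower, at 2.61 in MKN45P and 6.33 in MKN45 (difference -3.47). SERPINH1 (HSP47), the collagen chaperone, had 5.25 in MKN45P and 5.18 in MKN45.

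Genes of export, cleavage and cross-linking were under 2-fold over all their probesets, with signal at 9 of 18 in MKN45P and 7 of 18 in MKN45. SEC24D, a coat protein of vesicles that carry procollagen, had 6.33 in MKN45P and 5.35 in MKN45 (difference 0.72), and KLHL12, an adaptor for large vesicles, had 4.71 in MKN45P and 4.08 in MKN45 (difference 0.78). Over only the probesets with signal in either line, both passed 2-fold, KLHL12 at 1.42 and SEC24D just past the threshold. Of these probesets 8 of KLHL12 had signal in MKN45P and 7 in MKN45, and 26 of SEC24D in MKN45P and 23 in MKN45. Those with signal in MKN45P alone could not have been 2-fold lower. LOX, a lysyl oxidase that cross-links collagen, had no signal, with 1.86 in MKN45P and 2.03 in MKN45. LOXL1, a relative of it, had 4.09 in MKN45P and 3.57 in MKN45 but a difference of -0.17, so its summaries disagreed in sign. Of 7 collagenases and gelatinases only MMP14, a membrane-bound collagenase, had signal, at 7.17 in MKN45P and 6.79 in MKN45.

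Among collagen receptors 1 gene passed 2-fold. ITGA2, the alpha chain of the collagen-binding integrin of epithelia, had 5.18 in MKN45P and 7.49 in MKN45, a difference of -1.78, and was lower at all 32 probesets. Its partner ITGB1 had 7.75 in MKN45P and 7.78 in MKN45 but a difference of 0.20, and DDR1, the epithelial discoidin domain receptor, had 8.28 in MKN45P and 8.25 in MKN45. MRC2, which takes up collagen fragments, had 2.83 in MKN45P and 2.42 in MKN45, and the other 6 receptors (DDR2, ITGA1, ITGA10, ITGA11, GP6 and LAIR1) had no signal in either line.

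The partners of type XVII and type IV collagen did not share 1 direction. ITGB4, the hemidesmosome integrin chain that binds type XVII collagen, had 8.60 in MKN45P and 9.47 in MKN45, or 0.501-fold, which lay just inside 2-fold and passed it with quantile normalization. DST, which encodes a hemidesmosome plaque protein, had a level of 2.45 in MKN45P, without signal, and 3.24 in MKN45, with a difference of -0.69. Over its 79 probesets with signal in either line it was -1.18, past 2-fold. All 79 had signal in MKN45 and 64 had it in MKN45P, so the others had to be lower in MKN45P. LAMB3, a chain of laminin-332, had a difference of 0.29, while the laminin chain LAMA3 of the same list had -0.38. The remaining hemidesmosome partners were PLEC1 (-0.20), CD151 (0.06) and ITGA6 (0.03). Of the 7 in all, 3 had a difference above 0 and 4 below. Among basement membrane partners of type IV collagen, the laminin chain LAMC1 had 7.16 in MKN45P and 6.40 in MKN45 (difference 0.46), and AGRN, a heparan sulphate proteoglycan, 6.04 in MKN45P and 5.14 in MKN45 (difference 0.68). The laminin chain LAMB1 had 5.24 in MKN45P and 6.64 in MKN45 (difference -0.79). None of 10 such partners differed 2-fold by this measure, while the gap between the levels of LAMB1, -1.40, is past it. The median difference was 0.21 for the modifying enzymes, -0.03 for export, cleavage and cross-linking, -0.02 for receptors, -0.20 for 7 hemidesmosome partners and -0.01 for basement membrane partners, beside 0.002 over all genes.

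**Figure D4:**
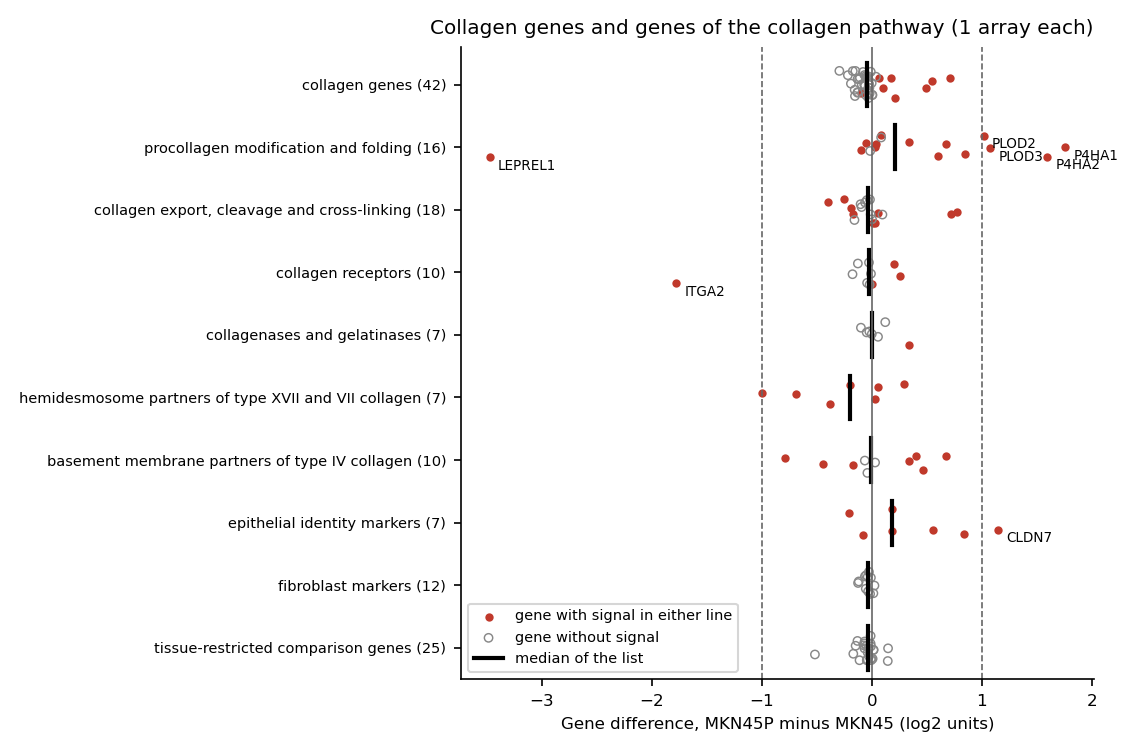
Difference of each gene, MKN45P minus MKN45 in log2 units (horizontal axis), for the 42 collagen genes and for lists of related genes, with the number of genes in parentheses; filled points have signal in either line, vertical bars are list medians, and dashed lines mark 2-fold. Every collagen gene lies within 2-fold, while P4HA1, P4HA2, PLOD2, PLOD3, LEPREL1, ITGA2 and CLDN7 lie outside it.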

How the data were processed

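The deposited values are log2 values, 1 per probeset and array, for 877986 probesets, 1 array per line. The submitters' processing notes name Partek and the hg18 build; how background was corrected, probes summarised and arrays normalized is not given here. The log2 scale was read from the values. Gene symbols came from the platform annotation; probesets with several symbols were left out, among them 4 shared by COL4A2 and STK24. RefSeq tables (GRCh38.p14) gave current names, neighbours and start windows only.

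Genes with at least 4 probesets were summarised by medians, with no filter on level, so that none entered through the line in which it was high. Members and lists were chosen with earlier results of these data known. Every collagen gene with signal or past 2-fold was named, as was every listed gene past 2-fold with signal. The rest were chosen as list examples. No test was possible.

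On simulated data made for this comparison with 16937 genes, 99 of 100 genes shifted up by 1.5 in log2 and 100 of 100 shifted down passed 2-fold, as did 2 of 16737 unshifted genes. The simulated noise was drawn probeset by probeset after the median difference of each gene was removed. It holds no error shared by the probesets of a gene, so 2 of 16737 is not a rate of false calls. Python 3.11.15 with numpy 2.4.6, pandas 2.3.3 and statsmodels 0.14.6 was used. Alternatives were other thresholds, scalings, summaries and filters; the sign split by setting and the probesets with signal in both lines were added after seeing the data.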

Additional observations from a re-analysis of the deposited data

How the results depend on the processing

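The absence of 2-fold differences among collagen genes held in each of the 7 other settings tried (quantile normalization, loess, means, difference of median levels, probesets with signal only, at least 10 probesets, a filter on level), with 0 higher and 0 lower. The median difference was -0.12 with means and -0.39 over probesets with signal in either array, against -0.05, and ran from -0.09 to -0.02 otherwise; the cause was not tested. The number of genes with signal moved with the threshold and the summary. In MKN45P it was 8, against 14 at the 95th percentile of olfactory receptor probesets, 1 at the 90th percentile and 17 with means. In MKN45 it was 7, against 12, 1 and 21 under the same settings. The share of all genes with signal moved too. In MKN45P that share was 48.94%, against 57.59%, 18.47% and 59.06% under these settings in the same order. In MKN45 the share was 45.2%, against 50.51%, 16.05% and 57.27%. With at least 10 probesets the collagen counts did not move. COL4A2, COL12A1 and COL17A1 kept values of 0.59 to 0.79, 0.42 to 0.61 and 0.55 to 0.83. Of the 8 collagen genes with signal in either line, COL6A2 changed sign, at 0.24 by the difference of median levels, and the other 7 kept it in the 7 settings. By that same measure COL4A1 was 0.50 and COL18A1 0.37, collagen genes below 0 numbered 23 in place of 32, LOXL1 (0.53) and ITGB1 (-0.03) turned sign, and EPCAM (1.03), PLOD1 (1.20), FKBP10 (1.07) and LAMB1 (-1.40) passed 2-fold. COL6A1 was 0.02 with means. Over probesets with signal, KLHL12 (1.42), SEC24D, DST (-1.18) and ITGB4 passed 2-fold. For KLHL12, SEC24D and DST some of these probesets entered only through the line in which the gene was higher. No paired analysis was possible because each line has 1 array, and no array could be left out. Signal over background limits what can be read of the 34 genes without signal: their differences are compressed.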

Other observations

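Other genes that carry a collagen-like domain, listed after the collagen values were seen, were also low. Of 29 genes summarised, 0 had signal in MKN45P, against 48.9% of all genes, and 3 in MKN45, against 45.2%. These 3 are named here. They had signal in MKN45 alone, so their levels had to be lower in MKN45P and their direction is not read. EMID2 (now COL26A1), which the symbol rule did not take in, had 2.65 in MKN45P and 3.36 in MKN45, with a difference of -0.54 (interquartile range -0.82 to -0.10 over 11 probesets). C1QTNF1, a secreted relative of adiponectin, had 2.62 in MKN45P and 3.22 in MKN45 (difference -0.43), and C1QTNF4, of the same family, 2.63 in MKN45P and 3.11 in MKN45 (difference -0.48). The list passed 2-fold in neither direction, and its median difference was -0.03.

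The 4 probesets annotated to COL4A2 and STK24 together had signal in both lines. Their values ran from 4.48 to 7.98 in MKN45P and from 4.31 to 7.53 in MKN45, with differences from 0.13 to 0.45. Adding them, an alternative chosen after seeing the data, gave COL4A2 a difference of 0.61, against 0.71 without them.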
